A study of Mus musculus with 24 samples.

Results

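The endothelin system was followed through 7 genes: the ligand genes Edn1, Edn2 and Edn3, the receptor genes Ednra and Ednrb, and the converting enzyme genes Ece1 and Ece2. The genes were chosen by name, as the ligands, receptors and converting enzymes of this system, out of the 54752 gene identifiers in the table. All 7 passed the filter on low counts and are among the 16463 genes tested. RNA-Seq was performed on the ductus arteriosus (DA), the fetal vessel that joins the pulmonary artery to the aorta, and on the ascending aorta of late-gestation mouse embryos. The Prdm6-deficient embryos are labelled Wnt1Cre;PRDM6f/f: Cre under the Wnt1 promoter deletes the floxed Prdm6 gene in neural crest cells, which give rise to smooth muscle of both vessels and to their melanocytes and Schwann cells, so cells of other origin, such as endothelium, keep the gene. Control embryos are labelled PRDM6wt/f or PRDM6wt/wt without Cre, apart from 1 embryo labelled Wnt1Cre;PRDM6wt/wt that gave a DA and an aorta sample. The analysis holds 7 control DA, 5 Prdm6-deficient DA, 6 control aorta and 5 Prdm6-deficient aorta libraries. Of the 5 Prdm6-deficient DA libraries, 2 carry 2 animal numbers each, those of replicate 2 being the animals of Prdm6-deficient aorta replicates 1 and 2, and 1 further Prdm6-deficient DA sample was not analysed here.

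Endothelins are small secreted peptides that are cut from larger precursors. Furin-type proteases release an inactive intermediate, and endothelin-converting enzymes then release the active peptide. Ednra is the main endothelin receptor of vascular smooth muscle, where it couples to Gq proteins and drives contraction, while Ednrb serves endothelial cells as well as melanocyte and enteric neuron precursors of the neural crest. Endothelin-1, the product of Edn1, is made mainly by endothelium and has long been studied as a constrictor of the DA, and Edn1 and Ednra are also needed for patterning of the pharyngeal arches by neural crest.

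The stretches that encode the active peptides show how closely the ligands resemble each other. They are taken from GENCODE M21 transcripts on mm10, all on the plus strand and each within 1 coding exon: chr13:42303649-42303711 for Edn1, chr4:120161951-120162013 for Edn2 and chr2:174761749-174761811 for Edn3. Each is 63 bases and 21 codons long and was found by the cysteine and tryptophan pattern of the translated coding sequence, and capitals mark the bases that differ from Edn1.
Edn1: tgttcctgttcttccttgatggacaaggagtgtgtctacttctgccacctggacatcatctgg
Edn2: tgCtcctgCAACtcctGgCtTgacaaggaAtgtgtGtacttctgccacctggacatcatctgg
Edn3: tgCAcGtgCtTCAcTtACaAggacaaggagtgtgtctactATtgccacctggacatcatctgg
Edn2 differed from Edn1 at 10 bases, which change 3 of the 21 residues, and Edn3 differed at 13 bases, which change 6 residues. The differences lie mostly in the first part of the peptide, and from the last cysteine codon on the bases are identical in Edn1, Edn2 and Edn3.

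On mm10, Edn1 lies at chr13:42301476-42307990, Edn2 at chr4:120161206-120167360, Edn3 at chr2:174760619-174784042, Ednra at chr8:77663031-77724464, Ednrb at chr14:103814625-103844402, Ece1 at chr4:137862237-137965229 and Ece2 at chr16:20629828-20646485. Ednra and Ednrb are on the minus strand and the others on the plus strand. An annotated gene on the opposite strand overlaps Edn1, Ednra and Ece1, and RSEM with default settings, as the study's methods give it, does not use strand, so reads of a gene and its antisense partner cannot be told apart. The overlapping gene never held more than 12 counts for Edn1, 36 for Ednra and 10 for Ece1, where Edn1 had at least 455, Ednra at least 369 and Ece1 at least 2486. Gm49333 overlaps Ece2 on the same strand and was at 0 counts in all 23 libraries.

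Library totals ran from 15163974 to 22610547 counts over the 23 libraries. Levels below are CPM, the counts relative to the library total after scaling by the TMM method, and a gene is called when its adjusted p is below 0.01 and its log2 fold change is beyond 0.5 either way, in edgeR's quasi-likelihood test over all genes. Prdm6 itself was at 58.6 to 78.5 CPM in the Prdm6-deficient DA and 84.9 to 128 CPM in the control DA, or -0.57 on the log2 scale (SE 0.11, edgeR adjusted p = 5.5e-04). In the aorta Prdm6 was at 61.9 to 81.2 CPM against 95.6 to 135 CPM, or -0.69 on the log2 scale (SE 0.11, edgeR adjusted p = 1.7e-04), and the genotypes did not overlap in either vessel. A count per gene does not show which part of Prdm6 the reads come from. The remaining level can therefore not be read as intact Prdm6 or assigned to a cell type. The 6 smooth muscle markers summed to 17941 ± 3835 CPM (SD, n = 7) in the control DA, and to 10645 ± 856 (n = 5), 10395 ± 1215 (n = 6) and 10265 ± 640 CPM (n = 5) in the Prdm6-deficient DA, the control aorta and the Prdm6-deficient aorta. In whole vessels, fewer cells of a type and less RNA per cell cannot be told apart.

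**Figure D1:**
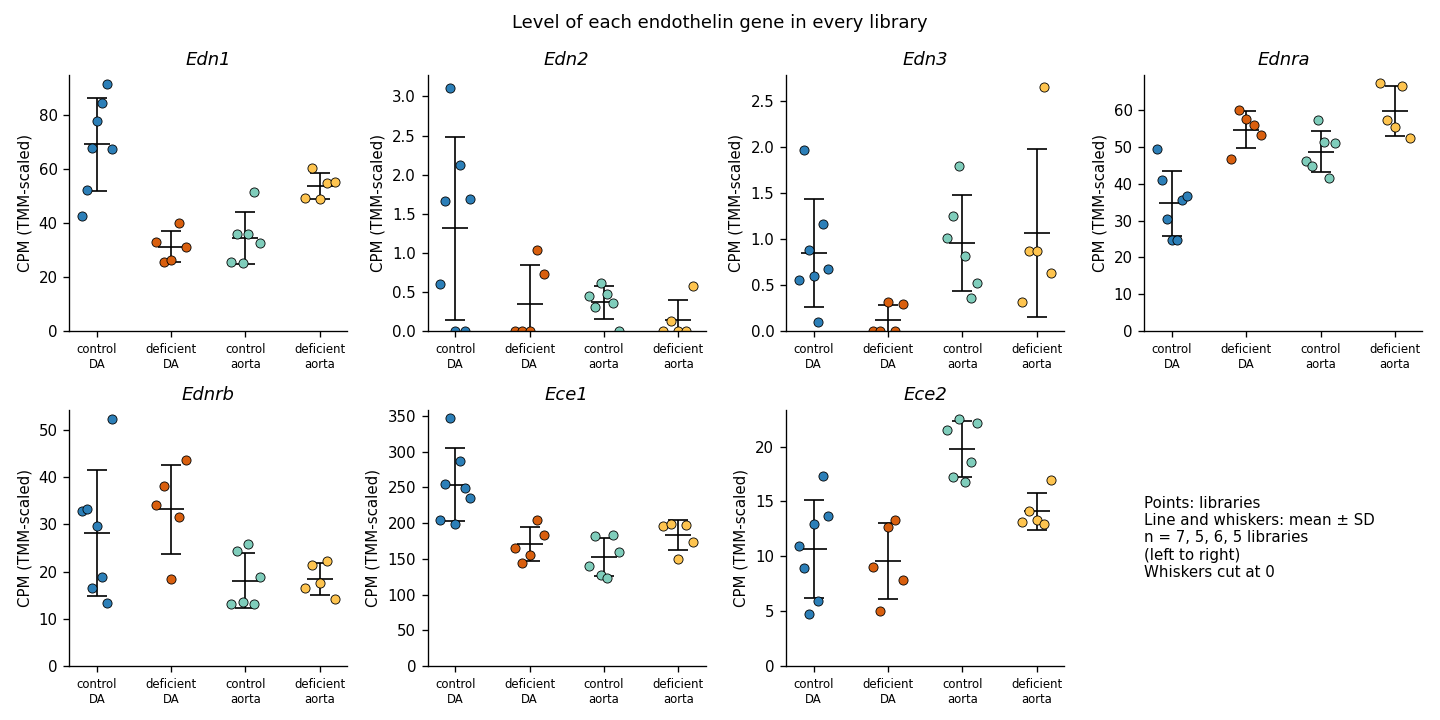
TMM-scaled CPM (y axis, linear from 0) of each of the 7 endothelin genes in the 4 groups, with 1 point per library and the mean ± SD as a line with whiskers. All 5 Prdm6-deficient DA points of Edn1 (25.8 to 40.2 CPM) lie below the 7 control DA points (42.8 to 91.6 CPM), and Edn2 and Edn3 are at or below 3.11 CPM in every library.

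To ask how the endothelin genes differ when Prdm6 is deleted in neural crest, the Prdm6-deficient DA was compared with the control DA. Edn1 and Ece1 fell and Ednra rose, while Edn2, Edn3, Ednrb and Ece2 were not called. That is 3 of 7 genes, 1 higher and 2 lower, where 5.43% of all genes tested were called. Edn1 alone of the 7 had groups that did not overlap, as did 5.66% of all genes. The median log2 fold change of the 7 genes was -0.57, against 0.01 over all genes tested.

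Edn1, the vascular ligand, was at 42.8, 68.0 and 91.6 CPM in the lowest, median and highest of the 7 control DA libraries. The 5 Prdm6-deficient DA libraries held 33.2, 25.8, 26.4, 40.2 and 31.2 CPM. Every deficient library was below every control library. The means were 31.4 ± 5.86 CPM (SD, n = 5) and 69.2 ± 17.3 CPM (SD, n = 7), a 2.21-fold lower level in the deficient DA (log2 fold change -1.14, SE 0.18, edgeR adjusted p = 3.7e-05). The call held without the 2 libraries that carry 2 animal numbers (-1.09, edgeR adjusted p = 0.0015). The animal numbers in the labels fall into 2 series, whose meaning the labels do not give, with 3 deficient and 2 control DA libraries in the first and 2 and 5 in the second. Within them Edn1 differed by -0.86 (edgeR adjusted p = 0.0476) and -1.35 (edgeR adjusted p = 0.0043).

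Ece1, the enzyme that releases active endothelin-1, spanned 199 to 348 CPM in the control DA, with a median of 250 CPM. In the Prdm6-deficient DA it was at 165, 145, 156, 205 and 184 CPM. Only deficient replicate 6, at 205 CPM, was within the control range, and the other 4 were below it. The means of 171 ± 23.7 CPM (SD, n = 5) and 254 ± 51.1 CPM (SD, n = 7) gave a 1.49-fold lower level (log2 fold change -0.57, SE 0.13, edgeR adjusted p = 0.0028). This call was close to both limits: without the 2 libraries that carry 2 animal numbers it was lost (-0.49, edgeR adjusted p = 0.0518), without control DA replicate 3 the log2 fold change was -0.48, and without deficient DA replicate 2 or 5 the edgeR adjusted p was 0.0129 or 0.0109. Within the animal number series it was -0.78 (edgeR adjusted p = 0.0343) and -0.52 (edgeR adjusted p = 0.0755), neither of them called.

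Ednra, the contractile receptor, moved the other way. Control DA libraries ran from 24.7 through a median of 35.7 to 49.2 CPM, and the deficient DA libraries held 46.8, 59.9, 57.5, 55.8 and 53.1 CPM. Only deficient replicate 1, at 46.8 CPM, was below the highest control, and 4 of 5 deficient libraries were above the control range. The mean was 54.6 ± 5.03 CPM (SD, n = 5) against 34.6 ± 8.86 CPM (SD, n = 7), a 1.58-fold higher level (log2 fold change 0.66, SE 0.13, edgeR adjusted p = 0.0011). The edgeR adjusted p was 0.0137 when only the DA libraries were fitted. Within the animal number series the log2 fold change was 0.58 (edgeR adjusted p = 0.156) and 0.72 (edgeR adjusted p = 0.0449), neither of them called. The 6 smooth muscle markers, whose cells use Ednra, went the opposite way in the DA, with sums of 9721 to 11754 CPM in the deficient libraries and 13256 to 23282 CPM in the controls, and their part in the Ednra level was not tested.

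Ednrb, the second receptor, was at 13.4 to 52.3 CPM in the control DA and at 34.1, 38.1, 18.5, 31.6 and 43.7 CPM in the deficient DA. All 5 deficient values lay within the control range, and the log2 fold change was 0.24 (95% interval -0.31 to 0.78, edgeR adjusted p = 0.662). The 6 melanocyte markers, whose cells use Ednrb, summed to 32.2 to 229 CPM in the control DA and 2.44 to 4.96 CPM in the deficient DA, with 4 of 6 called lower, and their part in the Ednrb level was not tested. The 7 Schwann and glial markers ran from 20.7 to 179 CPM in the control DA and from 66.3 to 135 CPM in the deficient DA, with 1 of 7 called, higher. The top of this control range was replicate 7, and the next control was at 41.4 CPM, below every deficient library. Control replicate 7 also held the highest Ednrb level, 52.3 CPM. The next control was at 33.3 CPM, below deficient replicates 1, 2 and 7. The part of glial cells in the Ednrb level was not tested.

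Ece2, a converting enzyme related to Ece1, was at 4.73 to 17.3 CPM in the control DA and at 9.04, 5.0, 12.6, 13.3 and 7.85 CPM in the deficient DA. Its log2 fold change was -0.15 (95% interval -0.67 to 0.37, edgeR adjusted p = 0.795). Edn2 held 0 to 56 counts per library in the control DA and 0 to 18 in the deficient DA, with 2 of 7 and 3 of 5 libraries at 0. Edn3, the ligand best known for melanocyte and enteric neuron development, held 2 to 39 counts in the control DA. In the deficient DA, 3 of 5 libraries had 0 counts of Edn3 and the highest had 7. This difference did not pass the test (edgeR adjusted p = 0.0673), and at these counts the size of a change in Edn2 or Edn3 could not be given.

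**Figure D2:**
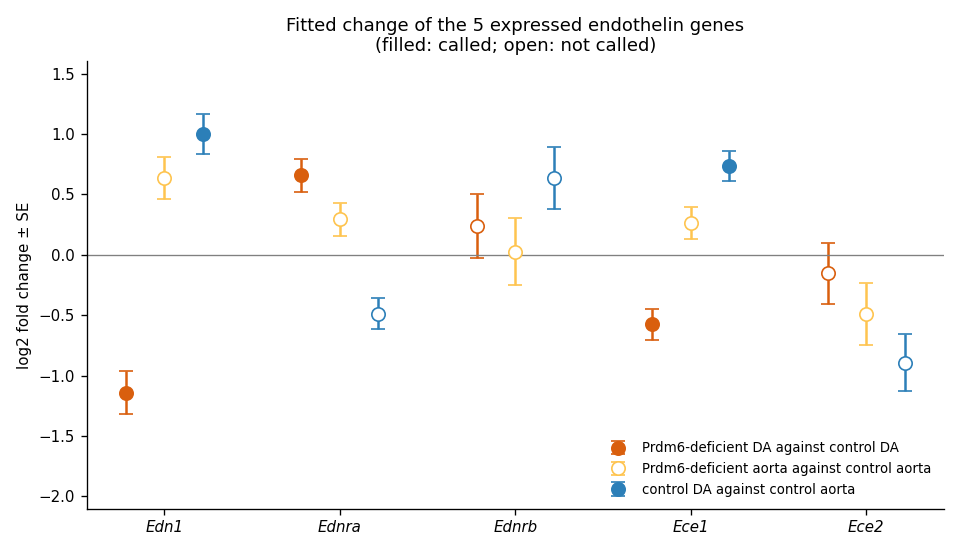
Fitted log2 fold change ± SE (y axis) of the 5 endothelin genes with more than trace counts, for the genotype comparison in the DA, the genotype comparison in the aorta and the control DA against the control aorta, with called values filled and the others open. Edn1 is at -1.14 in the DA and 0.64 in the aorta for the deficient genotype, and at 1.0 for control DA against control aorta.

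In the aorta the same genotype comparison called 0 of the 7 endothelin genes, where 2.45% of all genes were called. Before adjustment the edgeR p was 0.0012 for Edn1 and 0.0419 for Ednra, and neither was called after it. The share of all genes at such unadjusted values was not counted. By DESeq2 only Edn1 of the 7 was called. The groups of 0 genes did not overlap, against 6.96% of all genes. The median log2 fold change of the 7 genes was 0.16.

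Edn1 in the control aorta was at 25.4, 34.4 and 51.5 CPM in the lowest, median and highest of 6 libraries. The Prdm6-deficient aorta held 49.2, 60.6, 48.9, 54.9 and 55.4 CPM. Control aorta replicate 5, at 51.5 CPM, was above 2 of the deficient libraries, and the other 5 controls were at or below 36.1 CPM. The mean of 53.8 ± 4.88 CPM (SD, n = 5) was 1.56 times that of the control aorta, 34.6 ± 9.57 CPM (SD, n = 6), on the fitted scale (log2 fold change 0.64, SE 0.17, edgeR adjusted p = 0.0286). Without control aorta replicate 5 it would be called (0.79, edgeR adjusted p = 0.0039), as it was when only the aorta libraries were fitted (0.63, edgeR adjusted p = 0.0089) and by DESeq2 (0.63, adjusted p = 0.0096). Within the animal number series, the first of which holds 1 control aorta library, it was 1.04 (edgeR adjusted p = 0.370) and 0.60 (edgeR adjusted p = 0.197).

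For Ece1 the aorta values were 123 to 183 CPM in controls and 195, 198, 150, 198 and 174 CPM in the deficient genotype, and the log2 fold change was 0.26 (95% interval -0.01 to 0.53, edgeR adjusted p = 0.377). For Ednra they were 41.6 to 57.2 CPM in controls and 67.3, 57.2, 55.2, 66.3 and 52.2 CPM in the deficient genotype, with a log2 fold change of 0.29 (95% interval 0.01 to 0.58, edgeR adjusted p = 0.322). Of these deficient aorta libraries 3 of 5 were above the control range for Ece1 and 3 of 5 for Ednra. Ednrb was at 18.4 ± 3.34 CPM (SD, n = 5) against 18.1 ± 5.84 CPM (SD, n = 6), a log2 fold change of 0.02 (95% interval -0.54 to 0.59, edgeR adjusted p = 0.997). Ece2 was at 14.1 ± 1.68 CPM (SD, n = 5) against 19.8 ± 2.55 CPM (SD, n = 6), with 4 of 5 deficient libraries below the control range (log2 fold change -0.49, SE 0.26, edgeR adjusted p = 0.428).

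Whether Prdm6 deficiency acted differently on the vessels was tested as the difference of the log2 fold changes. This difference was called for Edn1 and Ece1, 2 of 7 genes, where 2.58% of all genes were called. For Edn1 it was -1.78 (SE 0.25, edgeR adjusted p = 3.4e-05), with a change of -1.14 in the DA beside 0.64 in the aorta. For Ece1 it was -0.84 (SE 0.18, edgeR adjusted p = 0.0048), from -0.57 in the DA and 0.26 in the aorta. With the embryo as a block, in the 6 control and 2 deficient embryos that gave both vessels as separate libraries, the Edn1 difference was -1.86 (edgeR adjusted p = 0.0025) while that of Ece1 was -0.58 and not called (edgeR adjusted p = 0.157). With the DA library that carries 2 animal numbers and the aortas of those animals as 1 further block, which brings in 2 more deficient embryos, the differences were -1.95 for Edn1 (edgeR adjusted p = 1.2e-04) and -0.78 for Ece1, again not called (edgeR adjusted p = 0.0104). The Ece1 call was also lost without the Cre-carrying control embryo (edgeR adjusted p = 0.0142) and without any 1 of 8 single libraries, named in the closing section. Within the animal number series the Edn1 difference was -1.89 (edgeR adjusted p = 0.0608) and -1.95 (edgeR adjusted p = 0.0036), and that of Ece1 -1.24 (edgeR adjusted p = 0.176) and -0.78 (edgeR adjusted p = 0.0591). For Ednra the difference was 0.36 (95% interval -0.03 to 0.76, edgeR adjusted p = 0.379), so an unequal effect was not shown.

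The control vessels were compared to ask which endothelin genes distinguish the fetal DA from the aorta. Edn1 and Ece1 were higher in the control DA, 2 of 7 genes where 5.36% of all genes were called. Ece1 alone had groups that did not overlap, at 199 to 348 CPM in the DA and 123 to 183 CPM in the aorta, as did 5.37% of all genes. These comparisons use the same control DA libraries as the genotype comparison in the DA, so their values stand side by side and are not independent.

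Edn1 was 2.0-fold higher in the control DA than in the control aorta (log2 fold change 1.0, SE 0.16, edgeR adjusted p = 8.3e-05), and 6 of 7 control DA libraries were above the highest control aorta library. Ece1 was 1.66-fold higher (log2 fold change 0.74, SE 0.12, edgeR adjusted p = 9.1e-05). Within the second animal number series both were called (1.0 and 0.58, edgeR adjusted p = 0.0017 and 0.0044), and in the first, with 1 control aorta library, neither was (1.25 and 1.24, edgeR adjusted p = 0.0860 and 0.0435). Ednra was lower without reaching the call (log2 fold change -0.49, SE 0.13, edgeR adjusted p = 0.0102), with 6 of 7 control DA libraries below the control aorta range. Ece2 showed the same arrangement, with 6 of 7 below (log2 fold change -0.89, SE 0.24, edgeR adjusted p = 0.0114), and DESeq2 and limma-voom called it (adjusted p = 0.0038 and 0.0014). Ednrb was at 28.1 ± 13.4 CPM (SD, n = 7) in the DA and 18.1 ± 5.84 CPM (SD, n = 6) in the aorta, with a log2 fold change of 0.64 (95% interval 0.11 to 1.16, edgeR adjusted p = 0.123).

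Both vessels came from the same embryo as separate libraries for 6 control and 2 Prdm6-deficient embryos, and 2 further deficient embryos share DA replicate 2 while their aortas are replicates 1 and 2. In all 6 control embryos Edn1 was higher in the DA than in the aorta, by 1.31 to 2.57 times with a median of 2.11. Ece1 was higher in the DA of the same 6 embryos, by 1.28 to 2.0 times. In both deficient embryos with separate libraries the order for Edn1 was turned, with DA levels 0.540 and 0.563 times those of the aorta, and Ece1 was at 1.04 and 1.06 times. Against the mean of the 2 aortas, the shared DA library was at 0.471 times for Edn1 and 0.736 times for Ece1. With the embryo as a block the control values were 0.99 for Edn1 (edgeR adjusted p = 1.2e-04) and 0.65 for Ece1 (edgeR adjusted p = 2.3e-04), both still called.

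**Figure D3:**
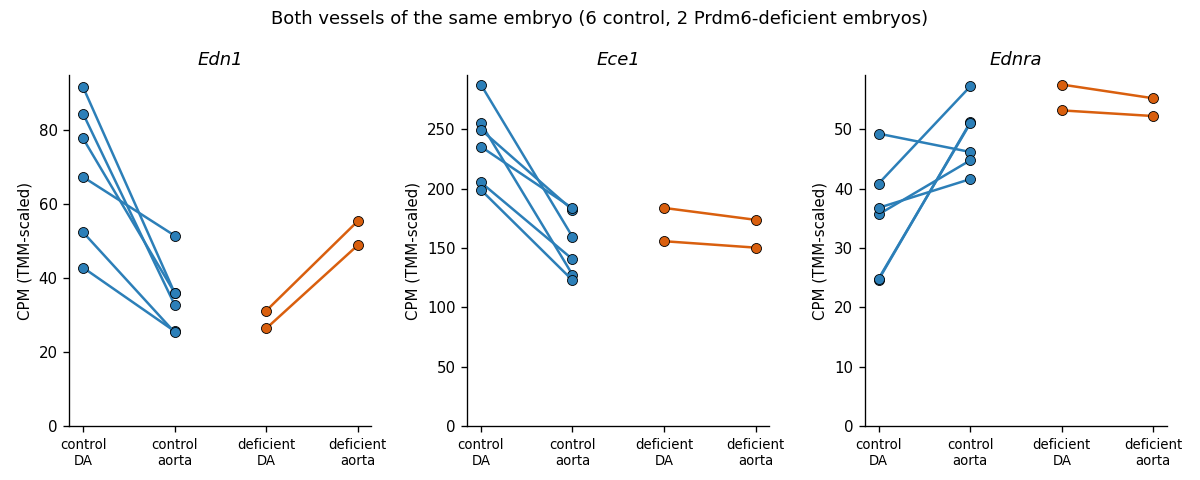
TMM-scaled CPM (y axis, linear from 0) of Edn1, Ece1 and Ednra in the DA and the aorta of the same embryo, 1 line per embryo, for 6 control and 2 Prdm6-deficient embryos, without the DA library that 2 deficient embryos share. All 6 control lines for Edn1 fall from the DA to the aorta and both deficient lines climb.

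Between the Prdm6-deficient vessels 0 of 7 endothelin genes were called, where 0.267% of all genes were called. Before adjustment the edgeR p was 2.7e-04 for Edn1, 0.0057 for the low-count Edn3 and 0.0069 for Ednrb. The share of all genes at such unadjusted values was not counted here either. By DESeq2 only Edn1 of the 7 was called. Edn1 was lower in the deficient DA than in the deficient aorta in every library, 25.8 to 40.2 against 48.9 to 60.6 CPM, and 3.53% of all genes did not overlap in this comparison. On the log2 scale the difference was -0.78 (SE 0.18, edgeR adjusted p = 0.0349), and DESeq2 called it (-0.77, adjusted p = 0.0049). The log2 fold change of Ece1 was -0.10 (95% interval -0.38 to 0.18, edgeR adjusted p = 0.901) and that of Ednra -0.13 (95% interval -0.42 to 0.17, edgeR adjusted p = 0.874).

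Levels between genes were compared per kilobase of merged exons. In the control DA, Ece1 was at 48.0 ± 9.65 CPM per kb and Edn1 at 32.3 ± 8.07 (SD, n = 7), and they stood above the receptors, Ednrb at 6.60 ± 3.14 and Ednra at 6.32 ± 1.62, which did not differ beyond their spread. Ece2 followed at 2.08 ± 0.871, and Edn2 at 0.899 ± 0.796 and Edn3 at 0.207 ± 0.144 were lowest. In the deficient DA, Ece1 at 32.2 ± 4.47 and Edn1 at 14.7 ± 2.74 CPM per kb (SD, n = 5) were still highest, followed by Ednra at 9.97 ± 0.919 and Ednrb at 7.78 ± 2.20. In the control aorta the order was Ece1 at 28.8 ± 5.01, Edn1 at 16.2 ± 4.47, Ednra at 8.88 ± 1.02, Ednrb at 4.25 ± 1.37 and Ece2 at 3.87 ± 0.499 CPM per kb (SD, n = 6), the last of which did not differ from Ednrb beyond their spread. In the deficient aorta Ece1 at 34.5 ± 3.96, Edn1 at 25.1 ± 2.28 and Ednra at 10.9 ± 1.24 CPM per kb (SD, n = 5) led. The order of the receptors rests on the gene length used: with the longest transcript as the length, Ednra in the control DA was at 9.55 CPM per kb and Ednrb at 6.85.

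Edn1 and Ece1 are both expressed in endothelium, so their levels were set beside 8 endothelial markers (Pecam1, Cdh5, Tek, Tie1, Kdr, Erg, Emcn and Esam). The marker sum was 787 to 999 CPM in the control DA and 816 to 1159 CPM in the deficient DA, overlapping, with 0 of 8 markers called. In the aorta it was 597 to 962 CPM in controls and 940 to 1218 CPM in the deficient genotype, with 3 of 8 called higher, Tek, Tie1 and Emcn. Between the control vessels 1 of 8 was called, Erg, higher in the DA. In a measure added after the values were seen, Edn1 per 100 CPM of summed endothelial markers was 7.82 ± 2.03 (SD, n = 7) in the control DA and 3.22 ± 0.404 (SD, n = 5) in the deficient DA, at 5.21 to 10.4 against 2.58 to 3.65, still without overlap. In the aorta the same measure was 4.61 ± 0.783 (SD, n = 6) in controls and 4.92 ± 0.432 (SD, n = 5) in the deficient genotype, at 3.71 to 5.78 against 4.17 to 5.23 with overlap. Ece1 per 100 CPM of markers was 23.3 to 36.0 in the control DA and 14.5 to 19.1 in the deficient DA, without overlap. In the aorta it was 18.7 to 23.5 in controls and 16 to 18.2 in the deficient genotype, lower and also without overlap. Its CPM in the aorta went the other way, with a log2 fold change of 0.26 that was not called. The control DA and the control aorta overlapped in this measure for both genes. For Ece1 the lowest DA library was at 23.3 and the highest aorta library at 23.5, with means of 28.6 ± 5.26 (SD, n = 7) and 20.5 ± 1.83 (SD, n = 6). For Edn1 the lowest DA library was at 5.21 and the highest aorta library at 5.78. The 6 smooth muscle markers summed to 13256 to 23282 CPM in the control DA and 9721 to 11754 CPM in the deficient DA. In the control aorta they summed to 8464 to 12042 CPM. The parts of endothelial and smooth muscle content in these results were not tested.

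**Figure D4:**
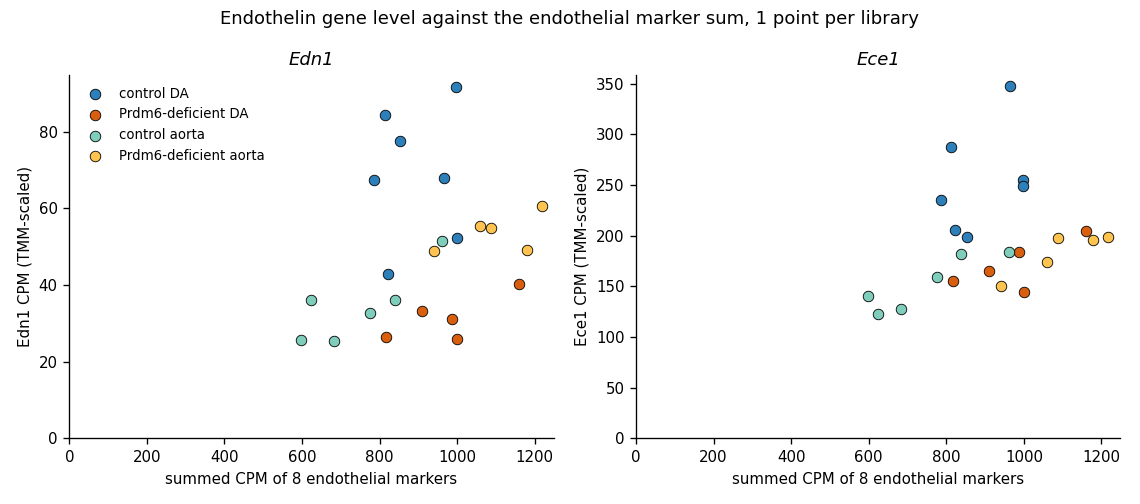
TMM-scaled CPM of Edn1 and Ece1 (y axes) against the summed CPM of 8 endothelial markers (x axes), both linear from 0, with 1 point per library and colours for the 4 groups. All deficient DA points for Edn1 lie below the control DA points at overlapping marker sums, and the deficient aorta points lie at marker sums of 940 to 1218 CPM against 597 to 962 CPM in the control aorta.

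Across the 23 libraries, which share vessel and genotype structure, the log2 levels of Edn1 and Ece1 had a Pearson r of 0.77, and of 0.50 once the group means were subtracted. For Edn1 and Ednra r was -0.63, and -0.64 within groups. Within groups the endothelial marker sum had an r of 0.51 with Edn1, 0.68 with Ece1 and -0.03 with Ednra. These are descriptions over libraries that share embryos. By the highest r over the 23 libraries among 12979 genes, the 3 genes most like Edn1 were Inafm2 (0.87, and 0.61 within groups), Nog, a BMP antagonist (0.84 and 0.36), and Aplp2 (0.84 and 0.50). Those most like Ece1 were the thrombin receptor gene F2r (0.88 and 0.67), Creb3l2 (0.87 and 0.67) and the adhesion molecule gene Mcam (0.86 and 0.56). Ednra was followed most closely by Chst2 (0.88 and 0.63), Rnf144a (0.87 and 0.54) and Ahsg (0.87 and 0.57). Ednrb was followed by Eps8 (0.83 and 0.80), Sh3tc2 (0.78 and 0.65) and the matrix proteoglycan gene Dcn (0.77 and 0.73), and Ece2 by Atp10b (0.79 and 0.64), Gm20721 (0.77 and 0.68) and Edc3 (0.77 and 0.73).

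Genes that act before, beside and after the receptors were then counted in the DA genotype comparison, where 5.43% of all genes were called. Of 9 tested genes for precursor cleavage and peptide clearance, which include Furin and Mme, 0 were called (log2 fold changes -0.26 to 0.60, median -0.12). Of 14 known regulators of Edn1 transcription, among them Gata2, Jun, Fos, Hif1a, Smad3, Klf2 and Foxo1, 0 were called in the DA (-0.52 to 0.41, median -0.08). In the aorta 1 regulator, Epas1, was called higher (0.78, SE 0.11, edgeR adjusted p = 3.9e-05); it was chosen after its values were seen, and it is itself known from endothelium. This is 1 of 14 regulators, where 2.45% of all genes were called in the aorta. Of the 9 cleavage and clearance genes 1 was called in the aorta, Mme, also chosen after its values were seen: this membrane endopeptidase, which degrades endothelins, was at 34.8 CPM on average in the deficient aorta and 3.53 CPM in the control aorta (log2 fold change 3.30, SE 0.36, edgeR adjusted p = 6.0e-07) and at 11.1 and 11.8 CPM in the deficient and control DA.

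Downstream of the receptors, 4 of 23 genes for G proteins, phospholipase C and receptor regulation were called in the DA, 2 higher and 2 lower. Rgs2, which limits Gq signaling and vasoconstriction, fell from 27.8 ± 6.37 CPM (SD, n = 7) to 12.4 ± 2.88 CPM (SD, n = 5) (log2 fold change -1.16, SE 0.17, edgeR adjusted p = 2.3e-05). Gnaq, the Gq alpha subunit, fell by 0.52 on the log2 scale (SE 0.12, edgeR adjusted p = 0.0025). Plcb1, a phospholipase C that Gq activates, rose by 0.83 (SE 0.19, edgeR adjusted p = 0.0044), and the receptor kinase gene Grk3 rose by 0.81 (SE 0.16, edgeR adjusted p = 6.0e-04). Grk3 was also called higher in the aorta (0.96, edgeR adjusted p = 2.4e-04), where 3 of the 23 were called, all higher, with Rgs4 and Rgs5 as the others, beside the 2.45% of all genes called there.

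Of the 6 smooth muscle markers 5 were called lower in the deficient DA, and their part in the changes of these pathway genes was not tested. Of the other marker lists, 1 of 4 fibroblast markers (Lum) and 1 of 3 tested neuron markers (Elavl4) were called higher in the deficient DA, and 0 of 3 lymphatic, 0 of 4 macrophage, 0 of 4 cardiomyocyte, 0 of 3 erythroid and 0 of 3 mesothelial markers were called. In the aorta the 5 neuron markers summed to 19.2 to 59.2 CPM in the deficient genotype and 5.71 to 10.4 CPM in controls, with 1 of 3 tested called higher (Elavl4, 3.01 on the log2 scale), and 1 of 4 fibroblast markers was called higher (Lum, 1.61), with sums of 2909 to 3657 and 3277 to 4146 CPM. The macrophage sum was 20.9 to 30.8 CPM in the deficient aorta and 36.9 to 71.0 CPM in the control aorta, and the lymphatic sum 26.9 to 43.1 and 53.9 to 98.0 CPM, both without overlap and with 0 of 4 and 0 of 3 markers called. Mme, Epas1, Grk3, Rgs4 and Rgs5 were called higher in this aorta comparison, as were the 3 endothelial markers, while the macrophage and lymphatic sums were lower. The part of these cell types in the 5 calls was not tested.

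Of 9 genes known as targets of Ednra signaling in the pharyngeal arches, 6 were tested in these vessels, and 2 were called, both higher in the deficient DA. Hand2, a transcription factor, rose from 12 ± 6.05 to 31.1 ± 8.74 CPM (log2 fold change 1.37, SE 0.26, edgeR adjusted p = 4.6e-04), and Mef2c from 64.2 ± 9.13 to 96.2 ± 8.38 CPM (0.58, SE 0.10, edgeR adjusted p = 2.3e-04). Of 13 tested receptors for other constrictors, 2 were called, both higher. Agtr1b, an angiotensin receptor, was at 0 to 2.79 CPM in the control DA and 6.47 to 8.28 CPM in the deficient DA (edgeR adjusted p = 0.0075). In the aorta it averaged 0.614 CPM in controls and 5.33 CPM in the deficient genotype (log2 fold change 3.11, edgeR adjusted p = 0.0420, not called). Reads that fit its close relative Agtr1a too are divided between them. Agtr1a averaged 2.96 CPM in the control DA and 7.80 CPM in the deficient DA (edgeR adjusted p = 0.0386, not called). Ptger3, a prostaglandin E2 receptor, rose from 3.77 ± 1.91 to 23.8 ± 7.92 CPM (log2 fold change 2.65, SE 0.43, edgeR adjusted p = 6.8e-05) and was also called in the aorta (2.34, edgeR adjusted p = 0.0014).

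**Figure D5:**
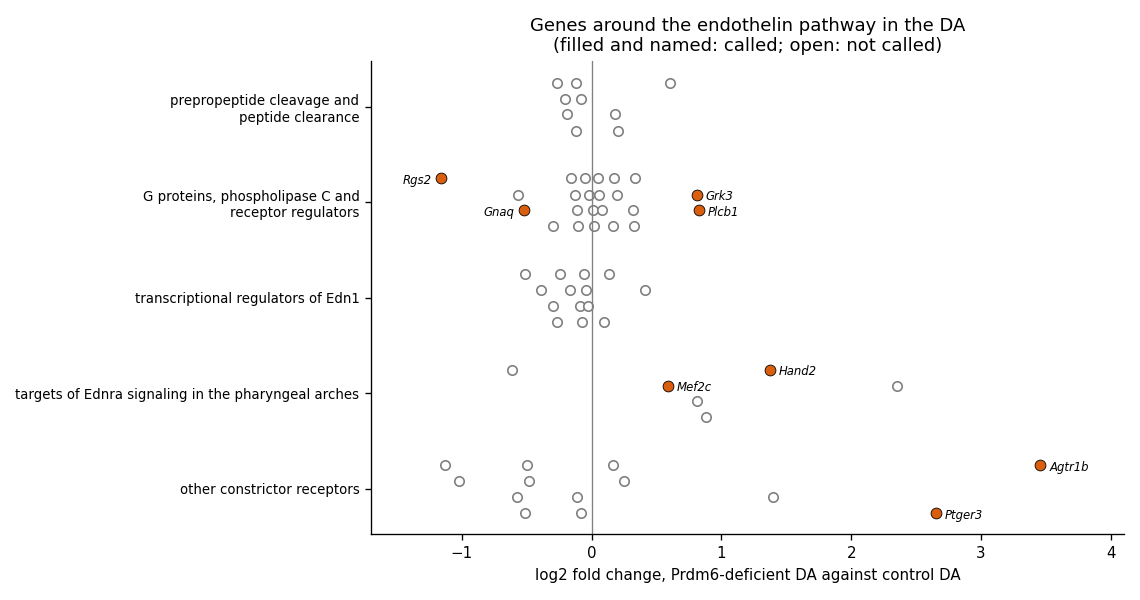
Log2 fold change (x axis) of each tested gene of 5 lists around the endothelin pathway, Prdm6-deficient DA against control DA, with 1 point per gene and called genes filled and named. Called genes stand on both sides of 0 in the list of G proteins and receptor regulators, and only above 0 among arch targets and other constrictor receptors.

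The promoters were read from RefSeq windows on GRCm38.p6, 250 bases before to 50 bases after each start, which exist for all 7 genes (10 windows, 4 of them for Ece1). They were searched on both strands for the CArG box, the GATA factor motif (AGATAA and its variant AGATAG, besides TGATAA and its variant TGATAG), the AP-1 motif (TGANTCA with either strong base as N, besides TGACTAA), the hypoxia response core ACGTG, the MCAT motif CATTCC and the RBPJ motif TGGGAA. The 250 bases before the start are shown for Edn1 at chr13:42301226-42301475 and for the first Ece1 start at chr4:137861987-137862236, both on the plus strand, because these genes fell together in the DA; capitals mark a motif match.
Edn1: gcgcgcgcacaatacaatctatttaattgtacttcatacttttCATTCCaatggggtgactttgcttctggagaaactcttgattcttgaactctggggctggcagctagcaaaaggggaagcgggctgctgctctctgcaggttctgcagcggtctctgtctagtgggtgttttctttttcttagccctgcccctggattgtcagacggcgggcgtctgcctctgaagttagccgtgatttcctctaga
Ece1: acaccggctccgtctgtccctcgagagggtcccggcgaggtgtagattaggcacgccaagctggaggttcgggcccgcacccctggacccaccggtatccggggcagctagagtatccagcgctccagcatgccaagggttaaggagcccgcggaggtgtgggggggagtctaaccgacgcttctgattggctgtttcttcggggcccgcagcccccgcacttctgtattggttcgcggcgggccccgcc
The capitals in Edn1 are an MCAT match 207 bases before the start, and 14.7% of the 32851 windows of all genes hold that motif. In the bases after the start the Edn1 window also held a match to the GATA factor motif, the hypoxia response core and the AP-1 motif, found in 29.8%, 19.6% and 7.38% of windows. The first 2 Ece1 windows held no match, the third held ACGTG on both strands, overlapping, and the fourth an RBPJ match (25.6% of windows). The Ece2 window held ACGTG, and the windows of Edn2, Edn3, Ednra and Ednrb held no match. The CArG box, found in 1.63% of windows, was in 0 of the 10 windows of the 7 genes. A match is only a run of letters in this window and was not tested for binding.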

How the data were processed

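RNA-Seq was performed by the authors on DA and ascending aorta of mouse embryos. Per the study's methods, reads were filtered with the FASTX toolkit and tagdust, aligned to mm10 with STAR and quantified with RSEM at default settings, which do not use strand, on a GENCODE annotation. The authors deposited RSEM expected counts per gene, which were rounded to whole numbers here. Gene symbols came from GENCODE M21, in which 54723 of 54752 identifiers matched without version. Groups came from the labels, and 23 of 24 samples had a column. Library totals were 15163974 to 22610547 counts, so 3 counts are 0.135 to 0.201 CPM. Separate embryos are given by animal number.

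Counts were filtered with filterByExpr, scaled by TMM and fitted with edgeR 4.0.16 (R 4.3.3), with 1 mean per group over all 23 libraries and the quasi-likelihood test. Adjusted p-values are those of Benjamini and Hochberg over 16463 genes, and a gene was called at an adjusted p below 0.01 with a log2 fold change beyond 0.5. Comparisons were genotype within each vessel, vessel within each genotype, and the difference of the genotype effects. Intervals are 95% and SE is the log2 fold change over the root of F. The fit was tested on simulated data. Alternatives were DESeq2 1.42.0, limma-voom 3.58.1, other scaling, no filter, leaving out libraries, animal number series, blocks and fitting 2 groups only; the animal block of the difference, and the block that adds the DA library shared by 2 embryos, were added after seeing the data. The 7 genes, the pathway and marker lists and the tests were chosen with earlier results of these data known. Pathway genes named are up to 4 per list called in the DA, by the largest change, unless stated otherwise, and the 3 genes most like a member are those with the highest Pearson r of log2 CPM. Samples of the same replicate number did not deviate together (r -0.057 to 0.20 over 28 pairs). Separate libraries of the same animal had r of -0.028 to 0.145 over 8 pairs, with a median of 0.064. For the other pairs in the same animal number series the median was -0.0070, at -0.138 to 0.148 over 96 pairs. The main fit does not pair libraries of the same animal. Promoter windows are from RefSeq on GRCm38.p6. Of the pathway lists, 1 is not reported here.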

Additional observations from a re-analysis of the deposited data

Results flagged for a closer look

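The difference of the Prdm6 effect between DA and aorta was past the threshold for Edn1 (-1.78, edgeR quasi-likelihood test with Benjamini-Hochberg adjustment, adjusted p = 3.4e-05) and Ece1 (-0.84, adjusted p = 0.0048). In the deficient DA 5 of 5 libraries were below the control range for Edn1 and 4 of 5 for Ece1, and in the deficient aorta 3 of 5 were above it for each. Edn2 in Prdm6-deficient aorta replicate 5 stood apart from its group at 0.585 CPM, where the next library was at 0.137 CPM. Edn3 in Prdm6-deficient aorta replicate 4 stood apart at 2.65 CPM, where the next library was at 0.877 CPM. These 2 came from 28 sets of libraries examined by Dixon's criterion, which flags about 1 in 20 by chance.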

How the results depend on the processing

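Edn1 and Ednra in the DA stayed called whichever 1 of the 23 libraries was left out, with log2 fold changes of -1.25 to -1.06 and 0.59 to 0.76. Ece1 ranged from -0.65 to -0.48 in the DA and from -0.91 to -0.74 for the difference, and the latter call was lost without deficient DA replicate 1, 2 or 5, control aorta replicate 1 or 3, or deficient aorta replicate 1, 2 or 4 (edgeR adjusted p 0.0101 to 0.0133). With 1 library left out, members called were 2 to 3 in the DA, 0 to 1 in the aorta, 2 to 3 between control vessels, 0 between deficient vessels and 1 to 2 for the difference, and genes called between deficient vessels were 22 to 58.

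Within the first animal number series, members called were 0 in the DA, 0 between control vessels and 0 for the difference, with -0.86 (Edn1), -0.78 (Ece1) and 0.58 (Ednra) in the DA, 1.25 (Edn1) and 1.24 (Ece1) between control vessels, and -1.89 (Edn1) and -1.24 (Ece1) for the difference. Genes called were 201, 7, 20, 3 and 0 in the DA, aorta, control vessels, deficient vessels and difference. Within the second, members called were 1 in the DA and 1 for the difference, with -0.52 (Ece1) and 0.72 (Ednra) in the DA and -0.78 (Ece1) for the difference, and genes called were 419, 226, 6 and 166 in the DA, aorta, deficient vessels and difference. Fewer libraries entered these fits.

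DESeq2 and the fit of only 2 groups each called 1 member, Edn1, in the aorta and between deficient vessels, with 134 and 83 genes called between deficient vessels and 702 in the aorta for only 2 groups; Ednra in the DA was 0.65 for only 2 groups. Without the 2 libraries with 2 animal numbers, Ece1 was -0.49 in the DA and -0.75 for the difference, where 1 member was called, and 15 genes were called between deficient vessels. Without the Cre-carrying control embryo, Ece1 was -0.79 for the difference and 1 member was called. The replicate numbers did not pair the samples; with the replicate block 1 member was called for the difference, Ece1 was -0.91 there, and 16 genes were called between deficient vessels. With the animal block 1 member was called for the difference, Ece1 was -0.58, and genes called were 6 between deficient vessels and 67 for the difference. With the shared DA library and its aortas as a further animal block, 1 member was called for the difference, Ece1 was -0.78, and genes called were 11 between deficient vessels and 238 for the difference. Between control vessels Ednra passed the call without control DA replicate 1 or 2 or control aorta replicate 5, and Ece2 without control DA replicate 6 or deficient DA replicate 2, without the libraries with 2 animal numbers, with the replicate block, and by DESeq2 and limma-voom. The causes were not tested.

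Signs that turned were all of values not called. They were Ece2 in the DA (0.083 without the libraries with 2 animal numbers, 0.77 in the first series, -0.30 to 0.010 with 1 library left out), Ednrb in the aorta (-0.047 without the Cre embryo, -0.13 in the second series, -0.055 to 0.15 with 1 left out) and Edn3 in the aorta (-0.15 with the series as covariate, -0.022 and -0.38 within series, -0.11 with the replicate block, -0.50 to 0.43 with 1 left out). Between control vessels Edn3 was -0.53 to 0.11 with 1 left out. Between deficient vessels Ece1 was 0.0073 in the first series and 0.064 with the animal block, and Ednra 0.040 with the animal block. For the difference, Edn2 was 0.17 without the libraries with 2 animal numbers, 3.82 in the first series and -1.46 to 1.32 with 1 left out, Ednrb -0.40 in the first series and Ece2 -0.53 in the second. With the further animal block Edn2 and Ednra between deficient vessels were -0.73 and 0.0015, and Ece2 -0.089 for the difference. Edn2 and Edn3 are limited by depth, with at most 57 counts in a library. No scaling moved the median of all genes by over 0.1.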
